A study of Rattus norvegicus with 6 samples.

Results

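The genes described here act in programmed cell death, in death receptor signalling, necroptosis and pyroptosis: the receptors Fas and Tnfrsf1a, the ligand gene Tnfsf10, the initiator caspase gene Casp8, the inflammatory caspase genes Casp1 and Casp4, the kinase genes Ripk1 and Ripk3, and Mlkl. They were taken by symbol, as a set of 9 genes, from a table of 17089 genes. Rows of 8 of them were read, 6 had enough counts to be tested, and the expression of Mlkl was not analysed here.

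RNA came from primary ventricular heart muscle cells of newborn Sprague Dawley rats, isolated at postnatal day 1 to 3. One group, called Tbx18, received an adenovirus (Ad-Tbx18-IRES-GFP) carrying Tbx18, a T-box factor needed to form the sinus node in the embryo, joined through an internal ribosome entry site to green fluorescent protein. The other, called GFP, received an adenovirus with green fluorescent protein alone (Ad-GFP), so virus and fluorescent protein were common to both. Virus was added on the day of isolation, serum was 10% for the first 2 days and 2% from day 3, and RNA was taken 4 days after virus. The data headers name every library of both groups as an unpaced control (unpace, Control). Each group had 3 libraries; the promoter in the vectors is not given in the sources used here. The title of the series sets the Tbx18-transduced cells, as induced pacemaker cells, against ventricular cardiomyocytes.

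As background, Fas and the tumour necrosis factor receptor encoded by Tnfrsf1a gather adaptor proteins at the membrane when their ligands bind. Caspase-8 activated in such a complex can start apoptosis, and where it is blocked the kinases RIPK1 and RIPK3 can instead drive MLKL to rupture the plasma membrane, a death called necroptosis. Caspase-1 and caspase-4 act in another branch, cutting gasdermin D to open membrane pores (pyroptosis). Interferon raises several genes of these pathways in many cell types.

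Recovered gene reads ran from 17074483 to 19800300 in Tbx18 libraries and from 17460507 to 18934232 in GFP libraries. Values below are the deposited normalized counts, that is, reads divided by 1 size factor per library, given in the order of replicates 1, 2 and 3. Tbx18 itself was at 6004, 6236 and 5937 in Tbx18 libraries, against 312, 268 and 296 in GFP libraries, so every library matched its label. Markers of the labelled cell type were present: the 11 measured cardiomyocyte genes summed to 451112 to 469001 in Tbx18 libraries and to 912854 to 1024186 in GFP libraries. The sum of 10 fibroblast genes was 517609 to 602254 in Tbx18 libraries and 241506 to 281437 in GFP libraries, so the cultures held fibroblast transcripts in both groups and more of them after Tbx18. These sums follow a few very abundant genes. Col1a1 averaged 371165 in Tbx18 and 198103 in GFP, and Col3a1 147143 and 47780. Among the cardiomyocyte genes, Myh6 averaged 219223 in Tbx18 and 291846 in GFP and was not called, and Myh7 averaged 39582 and 235206 and was called lower. In bulk RNA, fewer cells of a type and less RNA per cell cannot be told apart. Nothing in the labels ties the replicates to separate cell isolations. The p-values set each group difference against the variation among libraries of the same group. That variation may be only technical, so the p-values may not extend to new isolations.

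Of the 6 tested genes of the set, Fas, Casp8, Ripk1 and Ripk3 rose with Tbx18, none fell, and Tnfrsf1a and Casp4 did not pass the test. The call was a Benjamini-Hochberg adjusted p under 0.05 in limma, taken over 11230 tested genes. Across all of these, 46.0% were called, 22.5% higher and 23.5% lower in Tbx18. The share called higher here, 4 of 6, was thus above that of all genes, but the 6 genes are few and were chosen with earlier results of these data known, so the count carries no test. The median log2 fold change of the 6 was 0.72, against 0.0051 for all genes tested.

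**Figure D1:**
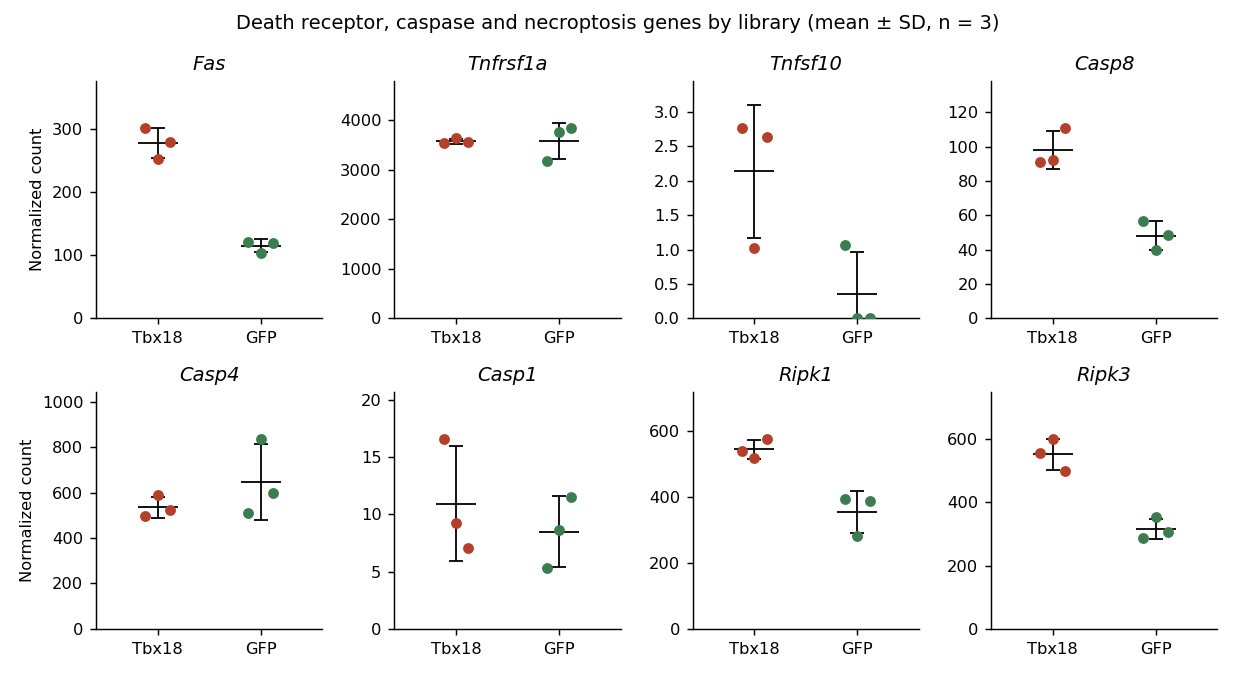
Normalized counts (vertical axes, each from 0) of the 8 genes read, with Tbx18 libraries left and GFP libraries right; points are libraries, bars the mean ± SD of 3. For Fas, Casp8, Ripk1 and Ripk3 every Tbx18 library lies above every GFP library, while Tnfrsf1a and Casp4 overlap and Tnfsf10 and Casp1 rest on few counts.

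Among the receptors, Fas, the cell surface receptor of Fas ligand, had 300.1, 252 and 278 normalized counts in Tbx18 libraries, against 121, 103 and 119.7 in GFP libraries. The lowest Tbx18 library was above the highest GFP library, and the libraries of each group lay close together. Fas averaged 277 ± 24.0 in Tbx18 and 114 ± 10.4 in GFP (SD, n = 3 each), a 2.42-fold rise (log2 fold change 1.27, SE 0.14, limma adjusted p = 0.000101). Among the 6 tested genes of the set it had the largest change.

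Tnfrsf1a, which encodes the main receptor of soluble tumour necrosis factor, had 3546, 3642 and 3560.2 normalized counts in Tbx18 libraries, against 3175, 3765 and 3839 in GFP libraries. The Tbx18 values fell inside the GFP range. Its log2 fold change was 0.00088 with a 95% interval of -0.20 to 0.20 (limma adjusted p = 0.994), so a change beyond about that interval was not seen with this scaling. With libraries scaled to equal recovered reads, which raised the median of all genes to 0.27, Tnfrsf1a was at 0.26 and was called higher (adjusted p = 0.0190, over its alternatives 0.0190 to 0.995). After quantile normalization, where the median of all genes was -0.01, it was at 0.21 and was not called (adjusted p = 0.0538).

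Setting Fas against Tnfrsf1a within each library removes the scaling from the comparison. The Fas to Tnfrsf1a ratio of normalized counts was 0.0846, 0.0692 and 0.0782 in Tbx18 libraries, against 0.0382, 0.0272 and 0.0312 in GFP libraries. Every Tbx18 library was above every GFP library, and the log2 ratio differed by 1.27 (exact two-sided permutation p = 0.1, the smallest that 3 against 3 libraries allow, and 0.167 adjusted over 5 such ratios). The ratio compares groups and says nothing of which gene has more transcripts, since the counts are not per length.

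The ligand genes Tnfsf10, Faslg and Tnf were scarcely read. Tnfsf10, which encodes the ligand TRAIL, had 3, 1 and 3 reads in Tbx18 libraries and 1, 0 and 0 reads in GFP libraries, at or below the 3 reads that a library at 0 could still hold, and no fold is given. Tested without the filter on low values it was not called (limma adjusted p = 0.0630). Fas ligand, Faslg, had 3 reads in all Tbx18 libraries together and 4 in GFP, and tumour necrosis factor itself, Tnf, had 25 and 23 reads in Tbx18 and GFP. A difference in these ligands was not detectable at this depth.

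Of the 16 genes listed as death receptors and their ligands, 8 could be tested; 5 were higher, 0 lower and 3 not called, and their median log2 fold change was 0.68, or 0.32 with no filter on low values, which lets in genes with few reads. Without GFP replicate 1 the count lower was 1. Over all genes tested, 22.5% were called higher and 23.5% lower, the shares to set beside this and each list count below. Fas was among the 5, and the others were a decoy, receptors and a ligand. Tnfrsf11b, which encodes osteoprotegerin, a soluble decoy that can bind TRAIL, averaged 1882 ± 77.9 in Tbx18 and 379 ± 84.9 in GFP, a 4.97-fold rise (limma adjusted p = 8.44e-06). Tnfrsf1b, the second tumour necrosis factor receptor, which lacks a death domain, rose 1.72-fold (log2 fold change 0.78, and 0.50 after quantile normalization); Tnfrsf21, death receptor 6, rose 1.63-fold; and Tnfsf12, the ligand TWEAK, rose 1.55-fold. Tnfrsf10b, a TRAIL receptor, averaged 419 ± 34.2 in Tbx18 and 393 ± 55.5 in GFP and was not called, except with equal recovered reads (adjusted p = 0.0332, over its alternatives 0.0332 to 0.983).

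Casp8, the initiator caspase of the receptor complexes, had 91.1, 92.2 and 111 normalized counts in Tbx18 libraries, against 56.4, 39.5 and 48.3 in GFP libraries. All Tbx18 libraries were above all GFP libraries, on few counts in GFP. Casp8 averaged 98.0 ± 10.9 in Tbx18 and 48.1 ± 8.43 in GFP (SD, n = 3 each), a 2.04-fold rise (log2 fold change 1.02, SE 0.20, limma adjusted p = 0.00252). After quantile normalization its log2 fold change was 0.64, still called (adjusted p = 0.0187, over its alternatives 0.000499 to 0.0187).

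Ripk1, the kinase that sits between survival signalling and death at these receptors, had 539, 518 and 575 normalized counts in Tbx18 libraries, against 393, 280.3 and 388 in GFP libraries. The groups did not overlap, and GFP replicate 2 was the lowest of the 6. Ripk1 averaged 544 ± 28.5 in Tbx18 and 354 ± 63.4 in GFP (SD, n = 3 each), a 1.54-fold rise (log2 fold change 0.64, SE 0.14, limma adjusted p = 0.00484). Ripk3, the kinase that phosphorylates MLKL, had 555, 599 and 500.3 normalized counts in Tbx18 libraries, against 288, 352 and 306 in GFP libraries. Again no Tbx18 library fell into the GFP range. Ripk3 averaged 552 ± 49.6 in Tbx18 and 315 ± 32.9 in GFP, a 1.75-fold rise (log2 fold change 0.81, SE 0.12, limma adjusted p = 0.000520). Non-overlapping groups were seen for 4 of the 6 tested genes and for 57.2% of all genes tested. The calls of Fas, Casp8, Ripk1 and Ripk3 held under all 18 alternative settings.

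Within a library the counts of the 2 kinases kept no fixed order. Since the counts are not per length, this does not tell which kinase has more transcripts. The Ripk3 to Ripk1 ratio of normalized counts was 1.03, 1.16 and 0.870 in Tbx18 libraries and 0.734, 1.26 and 0.789 in GFP libraries, with GFP replicate 2 the highest of the 6. The groups overlapped (difference in log2 ratio 0.17, exact two-sided permutation p = 0.6). The difference was 0.02 without GFP replicate 1, 0.07 without Tbx18 replicate 2, 0.08 without GFP replicate 3, 0.28 without Tbx18 replicate 3 and 0.41 without GFP replicate 2.

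Neither inflammatory caspase gene was called. Casp4, which in the mouse is the caspase-11 that senses bacterial lipopolysaccharide in the cytosol, had 499, 587 and 521 normalized counts in Tbx18 libraries, against 509.6, 835 and 598 in GFP libraries. The groups overlapped and GFP replicate 2 stood above all others. Casp4 averaged 536 ± 45.8 in Tbx18 and 648 ± 168 in GFP and was not called (log2 fold change -0.25, 95% interval -0.62 to 0.13, limma adjusted p = 0.255). It was called lower without GFP replicate 1 (-0.40, adjusted p = 0.0368), was at -0.05 without GFP replicate 2 and at 0.018 with equal recovered reads (adjusted p 0.0368 to 0.925 over its alternatives). Casp1, the inflammasome caspase that matures interleukin-1 beta, had 16.6, 9.22 and 7.02 normalized counts in Tbx18 libraries and 5.32, 8.64 and 11.5 in GFP libraries. Its mean over the 6 libraries, 9.71, lay just under the minimum of 10, the groups overlapped, and without the filter it was not called (log2 fold change 0.31, limma adjusted p = 0.590).

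Promoters are shown as a description, since Fas, Ripk1 and Ripk3 rose in libraries where interferon-stimulated genes were also higher. A link between these rises was not tested, and 22.5% of all genes tested were called higher. Promoter sequences from RefSeq (build GRCr8) were matched for 7 of the 9 genes; those of Casp4 and Casp8 were not used here. A window of 250 bases before to 50 after the annotated start was searched on both strands for a core of the interferon-stimulated response element, GAAANNGAA, the interferon gamma activated site, TTCNNNGAA, a core of the NF-kappaB motif, GGGNNTTTC, and a T-box motif, AGGTGTGA. The response element core was in 4 of 7 windows, those of Fas, Casp1, Ripk1 and Tnfsf10, and in 9.71% of all 33469 windows of that length. Casp1 and Tnfsf10 lay below the filter on low values, and with 7 windows the count carries no test. The activated site (8.87% of all windows) and the T-box motif (1.1% of all windows) were in 0 of 7. The NF-kappaB core (4.53% of all windows) was in 1, that of Mlkl. Below are the 250 bases before the start for 3 genes that rose and for Tnfsf10, which has a match but few reads; capitals mark a match to the response element core on the reverse strand.
Fas, chr1:241211905-241212154, plus strand: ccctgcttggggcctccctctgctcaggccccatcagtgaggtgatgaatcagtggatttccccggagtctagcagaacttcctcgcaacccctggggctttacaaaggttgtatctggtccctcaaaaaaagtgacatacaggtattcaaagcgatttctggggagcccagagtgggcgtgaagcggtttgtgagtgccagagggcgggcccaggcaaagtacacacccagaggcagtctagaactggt
Ripk1, chr17:31077168-31077417, minus strand: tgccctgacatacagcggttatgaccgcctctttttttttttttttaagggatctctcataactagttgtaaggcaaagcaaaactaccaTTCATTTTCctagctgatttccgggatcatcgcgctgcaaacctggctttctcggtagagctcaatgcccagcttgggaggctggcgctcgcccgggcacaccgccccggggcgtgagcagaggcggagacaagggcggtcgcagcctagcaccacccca
Ripk3, chr15:33262026-33262275, minus strand: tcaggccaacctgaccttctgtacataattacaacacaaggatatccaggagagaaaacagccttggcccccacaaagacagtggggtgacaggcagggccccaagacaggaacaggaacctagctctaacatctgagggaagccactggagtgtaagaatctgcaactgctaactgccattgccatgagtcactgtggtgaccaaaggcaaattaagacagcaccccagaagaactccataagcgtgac
Tnfsf10, chr2:112136689-112136938, plus strand: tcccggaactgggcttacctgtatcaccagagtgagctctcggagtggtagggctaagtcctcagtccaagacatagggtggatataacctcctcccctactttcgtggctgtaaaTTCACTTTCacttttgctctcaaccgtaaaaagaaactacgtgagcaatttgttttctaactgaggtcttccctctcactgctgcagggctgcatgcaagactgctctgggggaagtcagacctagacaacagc
The match in Fas, TTCTCTTTC, lay 39 to 47 bases after the start, outside the stretch shown. Those of Ripk1 and Tnfsf10 began 160 and 134 bases before the start, and Ripk3, which rose, had no match to any of the 4 motifs in its window. These are matches of letters and not shown sites of binding, and the genome build behind the deposited counts is not given in the sources used here.

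**Figure D2:**
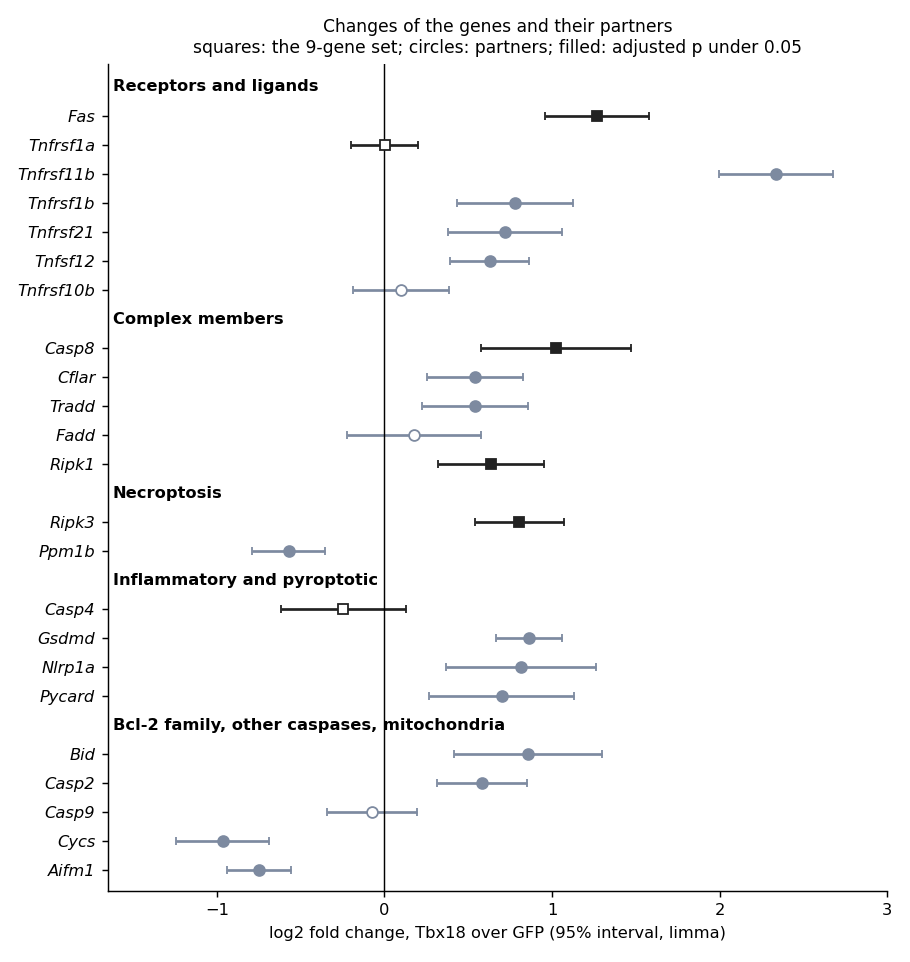
Log2 fold change of Tbx18 over GFP (horizontal axis) with its 95% interval from limma, grouped by role; squares are genes of the 9-gene set, circles partners, filled symbols adjusted p under 0.05. Fas (1.27) and Casp8 (1.02) lie right of 0, Tnfrsf1a (0.00088) on it, and Cycs (-0.97) and Aifm1 (-0.75) left of it.

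The partners of these genes in the receptor complexes were mostly not called. Among all genes tested, 22.5% were called higher and 23.5% lower. Of 19 tested adaptors and regulators, 4 were higher and 1 lower, with a median log2 fold change of -0.0067; with equal recovered reads 8 were higher and 0 lower, with a median of 0.26. The count higher was 2 without Tbx18 replicate 1, and the count lower was 0 without Tbx18 replicate 1 or Tbx18 replicate 3 and 2 without GFP replicate 1. Cflar, which encodes the caspase-8 inhibitor c-FLIP, averaged 380.5 ± 41.0 in Tbx18 and 261 ± 24.9 in GFP, a 1.46-fold rise (limma adjusted p = 0.00700). Tradd, the adaptor of Tnfrsf1a, rose 1.44-fold, and was not called without Tbx18 replicate 1 (adjusted p = 0.05001, over its alternatives 0.00114 to 0.05001). Fadd, the adaptor that carries caspase-8 to Fas, averaged 134 ± 22.3 in Tbx18 and 118 ± 17.0 in GFP and was not called. Xiap, an inhibitor of executioner caspases, was called higher by 0.39 and Tab2, a scaffold of NF-kappaB signalling, lower by a log2 fold change of -0.28. The Xiap call was lost without any 1 of the Tbx18 libraries and without GFP replicate 2 or GFP replicate 3 (adjusted p 0.00356 to 0.104 over its alternatives; 0.66 with equal recovered reads), and the Tab2 call under 7 of 18 alternatives, the 3 other scalings among them (adjusted p 0.00966 to 0.911).

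Caspase-8 and its inhibitor were compared within libraries. The Casp8 to Cflar ratio of normalized counts was 0.236, 0.274 and 0.264 in Tbx18 libraries, against 0.205, 0.143 and 0.208 in GFP libraries. Each Tbx18 library was above each GFP library, with GFP replicate 2 the lowest (difference in log2 ratio 0.48, exact two-sided permutation p = 0.1, the smallest possible), and the difference was 0.31 without GFP replicate 2.

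**Figure D3:**
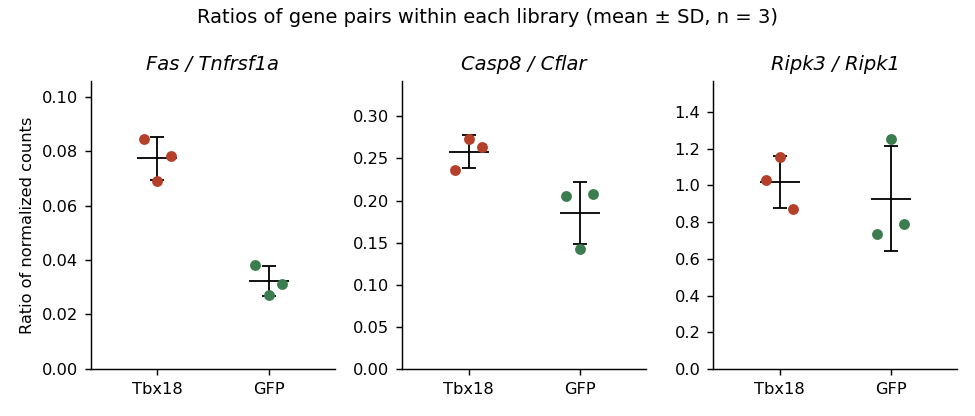
Ratios of normalized counts of gene pairs within each library (vertical axes from 0), Tbx18 left and GFP right; points are libraries, bars mean ± SD of 3. The Fas to Tnfrsf1a and Casp8 to Cflar ratios do not overlap between groups, the Ripk3 to Ripk1 ratios do.

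Across the caspase family, 2 of 8 tested genes were higher, 0 lower and 6 not called, beside 22.5% higher over all genes tested. The median log2 fold change of the family was 0.23. The other riser was Casp2, an initiator caspase that acts in the response to DNA damage, at 677 ± 40.7 in Tbx18 and 454 ± 65.3 in GFP (1.49-fold, limma adjusted p = 0.00321). With equal recovered reads 5 caspases were higher (median 0.49), and without GFP replicate 1 the count lower was 1. Casp9, the caspase of the apoptosome, averaged 323 ± 21.4 in Tbx18 and 341 ± 35.2 in GFP.

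In the necroptosis list, 2 of 8 tested genes were higher, both of them kinases described above, 1 lower and 5 not called. The median log2 fold change was -0.09, and it was 0.18 at equal recovered reads and 0.04 when quantile-normalized, so its sign depended on the scaling. Ppm1b, a phosphatase that removes the activating phosphate from RIPK3, was the gene that fell, to 3191 ± 69.3 in Tbx18 against 4763 ± 575 in GFP (log2 fold change -0.57, limma adjusted p = 0.00118); its value was -0.31 at equal recovered reads and -0.35 when quantile-normalized, both called. Zbp1, an interferon-induced sensor that can also engage RIPK3, had 4 reads in Tbx18 and 1 in GFP over all libraries, and no difference could be read at this depth. Without GFP replicate 1 the count lower was 2.

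Of 10 tested genes of the inflammasome and of pyroptosis, 5 were called higher, 0 lower and 5 not called. Over all genes tested, 22.5% were called higher and 23.5% lower. The median log2 fold change of the list was 0.75. After quantile normalization 3 of its genes were called higher and its median was 0.27. Leaving out any 1 of the Tbx18 libraries also left 3 called higher, and leaving out GFP replicate 1 gave 1 lower, Casp4. Gsdmd, the pore-forming substrate of the inflammatory caspases, had 902, 892 and 965 normalized counts in Tbx18 libraries, against 488, 526 and 500.5 in GFP libraries. The groups lay far apart for the spread within them, with a 1.82-fold rise (log2 fold change 0.86, SE 0.09, limma adjusted p = 7.07e-05). Pycard, the adaptor that recruits caspase-1, rose by 0.70 on the log2 scale, but was not called without Tbx18 replicate 2 (adjusted p = 0.0630, over its alternatives 0.00200 to 0.0630). Nlrp1a, an inflammasome sensor with close paralogs among which reads could be split, rose 1.77-fold, its log2 fold change of 0.81 being 0.54 after quantile normalization. Mefv, which encodes pyrin, and Gsdme (Dfna5 in the table), a gasdermin, were called higher by 1.09 and by 0.81. The Mefv call was lost after quantile normalization, where its log2 fold change was 0.57, and without any 1 of the Tbx18 libraries or GFP replicate 2 (adjusted p 0.00276 to 0.178); without a Tbx18 library its value was 1.04 to 1.18, and it was 0.74 without GFP replicate 2. That of Gsdme was lost after quantile normalization (0.35) and without Tbx18 replicate 1 (0.60), Tbx18 replicate 3 or GFP replicate 2 (adjusted p 0.00905 to 0.313).

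Downstream of caspase-8 the mitochondrial arm moved both ways. Bid, which caspase-8 cuts to reach the mitochondria, averaged 194 ± 9.91 in Tbx18 and 109 ± 27.7 in GFP, a 1.78-fold rise (log2 fold change 0.86, limma adjusted p = 0.00586). Of 16 tested Bcl-2 family genes, 2 were higher and 4 lower, with a median log2 fold change of -0.06; with equal recovered reads 7 were higher and 2 lower (median 0.21), and without GFP replicate 3 the count higher was 4. The survival gene Mcl1 fell by 0.57, and Bok and Bik, which promote death, fell by 0.64 and 0.82 on the log2 scale. Bad was also called higher (log2 fold change 0.44, limma adjusted p = 0.00708). Bcl2l2 was also called lower (log2 fold change -0.38, limma adjusted p = 0.00590). The values of Mcl1 and Bok were -0.31 and -0.38 with equal recovered reads, both called, and the Bik call was lost there and without Tbx18 replicate 1, Tbx18 replicate 2, GFP replicate 1 or GFP replicate 2 (adjusted p 0.00238 to 0.0947 over its alternatives); Bik was at -1.24 after quantile normalization.

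Of 16 tested genes of the apoptosome and of execution, 1 was higher and 4 lower, with a median log2 fold change of -0.07; with equal recovered reads 5 were higher and 4 lower (median 0.19). The gene called higher was Xiap, and the count was 0 without any 1 of the Tbx18 libraries and without GFP replicate 2. The 4 that fell were Cycs, cytochrome c, at 6186 ± 319.5 in Tbx18 and 12193 ± 2106 in GFP (log2 fold change -0.97, limma adjusted p = 0.000232), Endog, a mitochondrial nuclease (-0.85), Aifm1, apoptosis-inducing factor (-0.75), and Dffa, the inhibitor of the caspase-activated DNase (-0.53). With equal recovered reads Aifm1 was at -0.49 and Dffa at -0.27, both called. Cycs, Endog and Aifm1 encode mitochondrial proteins. Markers of cardiomyocytes moved with them: 9 of 11 tested were lower and 0 higher, with a median log2 fold change of -0.96, and the part of this in the values above was not tested.

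**Figure D4:**
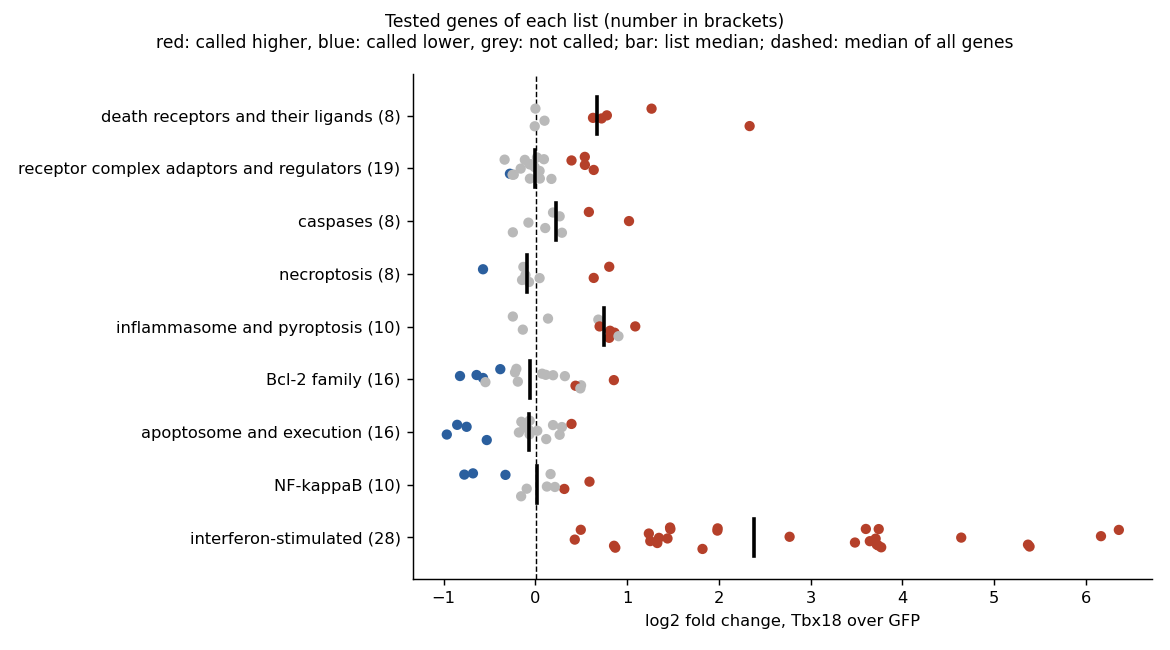
Log2 fold change of Tbx18 over GFP (horizontal axis) for every tested gene of each list (rows), red where called higher, blue where called lower and grey where not called; black bars are list medians and the dashed line the median of all genes. All 28 tested interferon-stimulated genes are red, some of which passed the filter only through their Tbx18 values. The Bcl-2, execution and NF-kappaB lists spread to both sides of 0.

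Interferon-stimulated genes, the antiviral genes that type I interferon switches on, were called higher in 28 of 28 tested, with a median log2 fold change of 2.38. Oas1a, Oas1b, Mx1, Rsad2 and Ifit3 averaged 2.19, 9.61, 3.04, 4.81 and 5.86 in GFP libraries, under the minimum of 10. They entered only through their Tbx18 values, so their calls were largely fixed by the filter and the count carries no test. The Tbx18 libraries differed among themselves in this list. Mx2, an interferon-induced GTPase, was at 672, 1754 and 1622 in Tbx18 replicates 1, 2 and 3, against 13.8, 16.1 and 12.7 in GFP libraries. Tbx18 replicate 1, the lowest of the 3 for Mx2, was the highest of them for Fas, lay between the others for Ripk1 and Ripk3, and was the lowest by a small margin for Casp8. With 3 libraries this is a description, and the part of interferon signalling in the rises was not tested. Mx1 and Mx2, like Oas1a and Oas1b, which were also among the 4 largest rises of the list, are close paralogs whose reads could be split.

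Markers of other cells that use these pathways were set beside the members. Of 10 tested fibroblast markers, 9 were higher and 0 lower, with a median log2 fold change of 1.19. Of 16 tested macrophage and leukocyte markers, 3 were higher and 0 lower (median 0.30), their sum running from 2162 to 2962 in Tbx18 libraries and from 1665 to 3101 in GFP libraries, with the T cell gene Cd3e at 0 in all 6. Of 10 tested endothelial markers, 6 were higher and 1 lower (median 0.54), with sums of 2715 to 2869 in Tbx18 libraries and 1802 to 2897 in GFP libraries. Of 9 tested smooth muscle and pericyte markers, 5 were higher and 1 lower (median 0.49), with sums of 122254 to 134106 in Tbx18 libraries and 79705 to 117524 in GFP libraries. The part of these cell types in the rises of Fas, Casp8, Ripk1 and Ripk3 was not tested.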

How the data were processed

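The deposited file holds DESeq2-normalized counts, a signal the authors made by dividing each library's gene read counts by 1 size factor, per the file headers. Per the submitters' processing notes the tools were DESeq2 1.10.1, HTSeq, STAR 2.4.0g1 and bcl2fastq 2.17.1.14; the sources used here give no build, annotation or strand setting. Per the labels' protocols, 100 ng of total RNA went into stranded mRNA libraries sequenced as paired ends of 101 bases. Every value was a whole multiple of its column's smallest value (tolerance 0.01), so whole reads were recovered for 100% of values.

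Groups were compared with limma 3.58.1 in R 4.3.3, its variance prior following intensity, on log2(normalized count + 1); a gene entered if its 6 libraries averaged 10 or more; folds are ratios of mean normalized counts. Alternatives used other scalings, pseudocounts, filters and limma settings, a replicate block, leaving out each library, and count tests on the recovered reads (DESeq2 1.42.0; edgeR 4.0.16). The named partners were the 4 called genes with the largest change in each list plus Fadd, Tradd, Cflar, Casp9, Gsdmd, Pycard, Zbp1, Faslg, Tnf and Tnfrsf10b. Bad and Bcl2l2 were named besides, so that every called Bcl-2 family gene is given. Members, lists and tests were chosen with earlier results of these data known. A planned ratio of Mlkl over Ripk3 was not formed, and some other planned values are not reported here. Counting error limits genes with few reads; no intervals on it are given.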

Additional observations from a re-analysis of the deposited data

How the results depend on the processing

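Of 18 alternatives, each kept the calls of Fas, Casp8, Ripk1 and Ripk3; their log2 fold changes ran from 1.099 to 1.53, 0.64 to 1.28, 0.48 to 0.90 and 0.74 to 1.07. Leaving out 1 library, 4 genes of the set were called higher each time and 0 to 1 lower, the 1 being Casp4 without GFP replicate 1. With equal recovered reads 4777 genes were higher and 1350 lower, against 2525 and 2639; the median over all genes then stood at 0.27 (log2), Casp4 was at 0.018 (adjusted p = 0.925), Tnfrsf1a at 0.26 and called, and Casp9 at 0.19 in place of -0.08. Leaving out 1 library, Casp4 ran from -0.40 to -0.047 and Tnfrsf1a from -0.086 to 0.051; Tnfrsf1a was at -0.0012 by DESeq2, and Fadd at -0.069 after quantile normalization in place of 0.18. Over the alternatives the medians of the adaptor, Bcl-2, execution and NF-kappaB lists changed sign, running from -0.04 to 0.26, -0.19 to 0.21, -0.14 to 0.19 and -0.03 to 0.28. The cause of these shifts was not tested. With 1 library left out, the genes called higher ran from 1891 to 2900 and those called lower from 2060 to 2968. The labels number replicates alike in both groups. Same-numbered libraries deviated with correlations of -0.0047, 0.15 and 0.016, and not every library correlated best with its own number. So few libraries and such weak correlations cannot tell whether same-numbered libraries shared a cell isolation. With a replicate block 2527 genes were higher and 2628 lower, and 4 genes of the set were higher and 0 lower. edgeR called 2615 genes higher and 2591 lower, DESeq2 2437 and 2659. Depth limits Tnfsf10, Casp1, Faslg, Tnf and Zbp1.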

Other observations

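The tested genes whose log2 profiles over the 6 libraries, each centred on its own mean, lay nearest to those of the death genes were looked up in the 9619 that averaged 50 normalized counts or more. Likeness was the root mean square difference of the centred profiles. Nearest to Fas were Tmem119 (0.07) and Sod3 (0.08), nearest to Casp8 were Pip5k1c (0.03) and Mrc2 (0.05), nearest to Ripk1 were Txlna and Sec16b (both 0.04), and nearest to Ripk3 were Gpatch4 and Emp3 (both 0.06). For Casp4 they were Nxt2 and Manf (both 0.07), and nearest to Tnfrsf1a was Fbxw4 (0.02). With 6 libraries in 2 groups that differ in many genes, these are descriptions without a test.

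NF-kappaB genes moved both ways. Of 10 tested, 2 were higher and 3 lower, with a median log2 fold change of 0.02; with equal recovered reads 5 were higher and 2 lower (median 0.28), and without any 1 of the Tbx18 libraries the count higher was 1. Nfkbie, an inhibitor of NF-kappaB, rose 1.52-fold. Map3k14, the kinase of the alternative pathway, fell to 144 ± 7.58 normalized counts in Tbx18, against 231 ± 15.8 in GFP (log2 fold change -0.68, limma adjusted p = 0.00206), and was at -0.42 with equal recovered reads. Nfkbiz, an inducible regulator, fell by 0.77 on the log2 scale, or by 0.51 with equal recovered reads. Bcl3 was called lower at -0.33, and that call was lost under 7 of 18 alternatives (adjusted p 0.00574 to 0.595).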
